A study of Mus musculus with 2 samples.

Results

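Cartilage fibrils are built from collagens of types II, IX and XI, and the 6 genes described here, Col2a1, Col9a1, Col9a2, Col9a3, Col11a1 and Col11a2, encode their chains. They were taken by gene symbol, and all 6 were found among the 15719 genes named in the table, all with values in both libraries. Type II collagen is a homotrimer of the Col2a1 product and forms the bulk of the fibril. Type XI collagen lies in the fibril core and limits its diameter, with chains from Col11a1, Col11a2 and, as the third, an overmodified Col2a1 product. Type IX collagen, with a chain from each of its genes, sits on the fibril surface and links it to the surrounding matrix.

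The cells were labelled as superficial zone (SFZ), the flattened chondrocytes at the face of articular cartilage, and came from C57BL/6 mice at postnatal day 5. Both libraries also held transcripts of hypertrophic chondrocyte markers and of haemoglobin, given below. There was 1 library labelled Prg4KO, from mice without Prg4, the gene for the joint lubricant lubricin, and 1 labelled wild type (WT). Cartilage of the femur ends and the proximal tibia, cleared of ligament, tendon and synovium, was digested with trypsin (0.25%) and then type I collagenase (173 U/mL), and the cells were seeded on fibronectin before polyadenylated RNA was sequenced. The sources used here do not give the Prg4KO allele, the number or sex of the mice, or how long the cells were cultured.

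With 1 library per genotype there was no replicate check, and every interval below covers counting error only. The libraries held 21392574 expected counts (Prg4KO) and 21619093 (WT). Beyond the first 20 rows of the table the Prg4KO values stood beside the wrong gene and were re-paired from row order and effective length. All Prg4KO values rest on that step. Prg4 itself had 6.15 counts in the Prg4KO library and 54559 in the WT library. Each library pooled the RNA of all cells collected, so fewer cells of a type and less RNA per cell cannot be told apart.

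The pairing was firm for the cartilage collagens. Their probabilities were 0.999999 or higher, and each sat in an unbroken run of 28 genes, from Col10a1 to Col1a1 in the numbering of the table, that all showed the same shift of rows. For the members listed with 1 transcript, Col9a2, Col9a3 and Col11a1, the effective length of the paired row matched that in WT to within rounding, and no other row with an FPKM of at least 5 within 50 rows on either side did so. For Col2a1, Col9a1 and Col11a2, listed with 2 transcripts, no such row matched, the paired one included. It differed in length by -0.02%, -2.65% and -0.12%. The pairing of these genes thus leans on their place in the run.

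Col2a1, on chromosome 15 from 97975602 to 98004724 (GRCm38), was the most abundant transcript in both libraries. Its FPKM, a level per length of transcript, was 15702 in the Prg4KO library and 14594 in the WT library. It took 7.84% of all Prg4KO counts and 7.28% of all WT counts. From 1678029 (Prg4KO) and 1573870 (WT) counts, the ratio per library total was 1.08 (95% interval 1.075 to 1.080). The log2 ratio of FPKM + 1 was 0.11, close to the median of 0.13 over 6697 genes with an FPKM of at least 5 in both libraries. Relative to that median Col2a1 lay at -0.03, and its sign turned negative under all 5 rescalings between libraries.

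The type IX genes had the highest ratios of the 6, and they were close to each other. Col9a1, whose chain carries the globular domain that projects from the fibril, had an FPKM of 1115 in the Prg4KO library and 709 in the WT library. Its count ratio per library total was 1.53 (1.52 to 1.55) and its log2 ratio of FPKM was 0.65. Col9a2, which encodes the chain that bears the glycosaminoglycan attachment site, had 1466 FPKM in the Prg4KO library and 985 in the WT library. Its count ratio was 1.49 (1.48 to 1.51) and its log2 ratio was 0.57. Col9a3, which completes the molecule, had 1434 FPKM in the Prg4KO library and 936 in the WT library. The Col9a3 count ratio was 1.53 (1.52 to 1.55) and the log2 ratio was 0.61. The log2 ratios of the type IX genes thus lay within 0.08 of each other. The genes are on chromosomes 1, 4 and 2. Their log2 ratios were higher than those of 93.3% to 95.7% of the 7365 paired genes whose FPKM reached 5 in at least 1 library.

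As deposited, the type XI genes lay between Col2a1 and type IX. Col11a1, on chromosome 3, had an FPKM of 510 in the Prg4KO library and 425 in the WT library, with a count ratio of 1.20 (1.19 to 1.21) and a log2 ratio of 0.26. Col11a2, on chromosome 17, had an FPKM of 719 in the Prg4KO library and 620 in the WT library, with a count ratio of 1.16 (1.15 to 1.17) and a log2 ratio of 0.21. Their log2 ratios were 0.05 apart. Relative to the all-gene median they were 0.13 and 0.08. With a trend in transcript length and GC content removed, Col11a1 was at 0.39, below Col2a1 at 0.43, and Col11a2 was at 0.58.

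**Figure D1:**
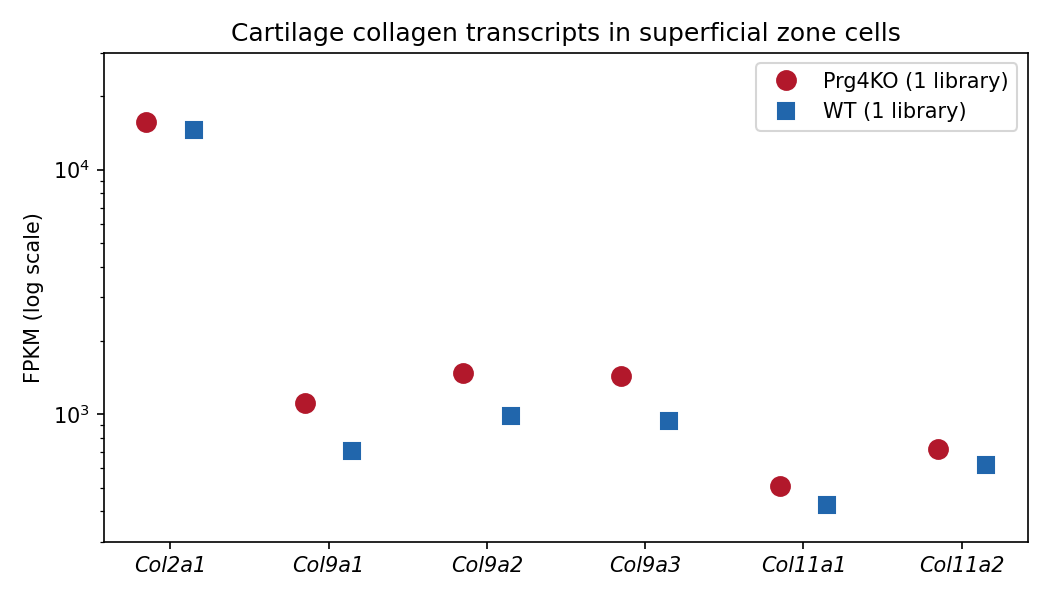
FPKM of the 6 cartilage collagen genes on a log scale in the Prg4KO library (circles) and the WT library (squares), 1 library each, so there are no error bars. The order of the genes is the same in both libraries, and the gap between symbols is widest for the type IX genes, for example 1434 and 936 for Col9a3.

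All 6 genes had a higher FPKM in the Prg4KO library as deposited, but the all-gene median log2 ratio was itself above 0, at 0.13. Relative to that median 5 of the 6 were higher, and Col2a1 lay at -0.03. Of the 6 genes 2, Col9a1 and Col9a3, were past 1.5-fold (a log2 ratio of at least 0.585). Over all 7365 genes, 6.31% were past this limit on the higher side and 1.52% on the lower side. No cartilage collagen was past 2-fold, which 0.462% of genes were on the higher side and 0.109% on the lower. Col9a2, at 0.57, lay just under the 1.5-fold limit. Abundant genes were past the limit more often: of 571 genes with an FPKM of at least 100 in both libraries, 9.46% were past 1.5-fold on the higher side. The count of members past 1.5-fold was 0 under all 5 rescalings, and the share of all genes past the limit that were on the higher side was 80.6% as deposited and 37.0% to 49.5% under them. The sign of the type IX and type XI genes stayed positive under every setting tried.

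The genes were also compared within each library, where scaling between libraries plays no part, though a trend with length and GC content can. Per 100 FPKM of Col2a1, the Prg4KO library held 9.34 of Col9a2, 9.13 of Col9a3 and 7.10 of Col9a1. The WT library held 6.75, 6.42 and 4.86 of the same genes in that order. Averaged over its chains, type IX stood at 8.52 per 100 of Col2a1 in the Prg4KO library and 6.01 in the WT library, 1.42 times as high. For type XI the same proportion was 3.91 in the Prg4KO library and 3.58 in the WT library, 1.09 times as high. As deposited, transcripts of the surface collagen were thus higher relative to that of the main fibril chain, and those of the core collagen stayed nearer to it. With the trend in length and GC content removed, the median log2 ratio of type IX was 0.78 and that of Col2a1 was 0.43. The type XI genes then lay on both sides of Col2a1, Col11a1 at 0.39 and Col11a2 at 0.58.

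**Figure D2:**
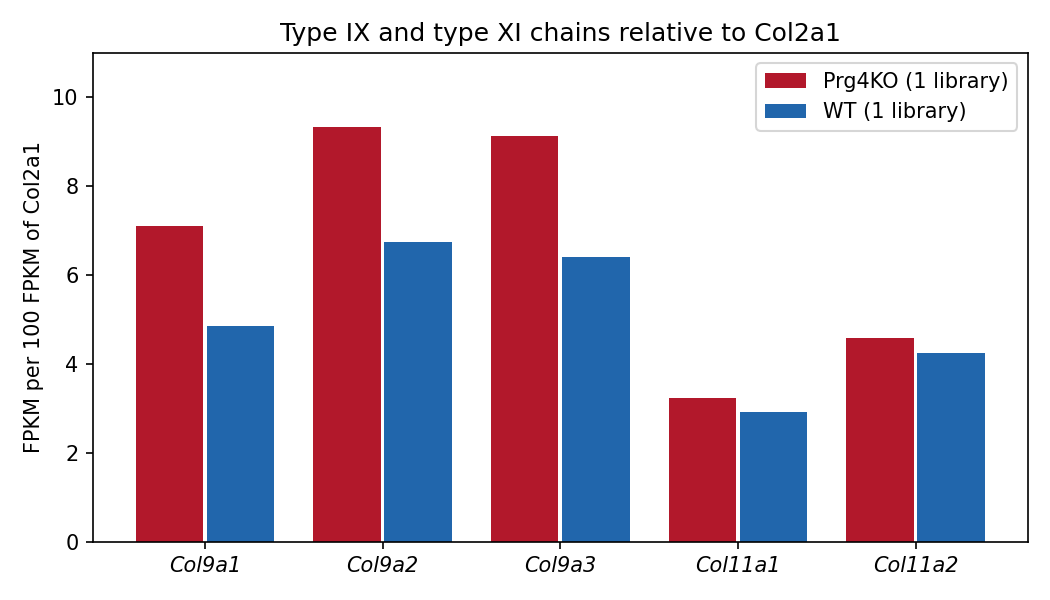
FPKM of each type IX and type XI gene per 100 FPKM of Col2a1 in the same library (bars from 0, Prg4KO left of WT, 1 library each). The 3 type IX genes stand at 7.10 to 9.34 in the Prg4KO library and at 4.86 to 6.75 in the WT library, and the type XI genes differ less. Values are as deposited, without removal of the trend in length and GC content.

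Among the genes of each molecule the proportions of FPKM were similar in the libraries. Col9a3 had 0.978 FPKM for each FPKM of Col9a2 in the Prg4KO library and 0.951 in the WT library. Col9a1 was the lowest type IX chain, at 0.760 of Col9a2 in the Prg4KO library and 0.720 in the WT library. Col11a1 had 0.709 of the FPKM of Col11a2 in the Prg4KO library and 0.686 in the WT library. The closest neighbours in level were Col9a2 and Col9a3, and without replicates their order cannot be set against a spread between cultures. With counts over the GENCODE transcript length in place of FPKM their order turned, at 1.04 of Col9a3 per Col9a2 in the Prg4KO library and 1.01 in the WT library.

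The effective length of a gene, which is its count over its FPKM, scaled by library size, follows its mix of transcripts, and it gave a readout of Col9a1 that the level does not. Col9a1 has a long transcript from an upstream start and a short one from an internal start. The long form encodes the large amino-terminal globular domain and is the usual cartilage form, while the short form lacks most of that domain and is known from the cornea. In GENCODE M21 the starts lie 17577 bases apart, and the coding part has 2763 bases in the long form and 2040 in the short one. The RefSeq windows around the starts (250 bases before to 50 after, GRCm38.p6) are shown since the 2 transcripts differ by which of them is used. They lie on the plus strand at chr1:24177360-24177659 and chr1:24194953-24195252, and the Col9a2 window, from the other type IX gene with a window, at chr4:121039316-121039615. Capitals mark the GC box GGGCGG or its reverse complement.
Col9a1 upstream start: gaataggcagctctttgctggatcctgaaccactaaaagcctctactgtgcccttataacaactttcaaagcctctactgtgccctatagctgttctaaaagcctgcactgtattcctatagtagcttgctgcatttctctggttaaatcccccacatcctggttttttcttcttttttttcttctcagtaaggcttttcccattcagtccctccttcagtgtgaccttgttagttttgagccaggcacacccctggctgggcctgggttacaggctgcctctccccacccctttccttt
Col9a1 internal start: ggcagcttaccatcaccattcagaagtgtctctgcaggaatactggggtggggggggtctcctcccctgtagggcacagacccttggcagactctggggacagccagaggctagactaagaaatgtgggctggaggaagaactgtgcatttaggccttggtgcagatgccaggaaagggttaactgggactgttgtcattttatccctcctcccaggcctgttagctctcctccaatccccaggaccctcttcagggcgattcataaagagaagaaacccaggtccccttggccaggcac
Col9a2 start: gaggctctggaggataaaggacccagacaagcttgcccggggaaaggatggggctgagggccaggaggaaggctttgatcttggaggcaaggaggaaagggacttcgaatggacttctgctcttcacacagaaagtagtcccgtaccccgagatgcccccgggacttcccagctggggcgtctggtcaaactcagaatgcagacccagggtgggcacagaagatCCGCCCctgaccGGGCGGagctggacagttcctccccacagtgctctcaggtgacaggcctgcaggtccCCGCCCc

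The windows differ in composition, with a GC content of 47.3% at the upstream Col9a1 start, 55.7% at the internal start and 61.7% at Col9a2. The GC box occurred 3 times in the Col9a2 window and in neither Col9a1 window. Counting both strands, 3 of the 5 windows held for Col9a1, Col9a2, Col11a1 and Col11a2 had it, against 35.7% of all 32851 RefSeq windows. The cores of the HMG box site bound by Sox proteins, searched as ACAAT and ACAAAG on both strands, were in 0 of the 5, against 31.0% and 18.7% of all windows. The 5 windows are few, and sequence outside them was not searched, so this does not bear on sites elsewhere in the genes. TATAAA was in 1 of the 5, that of Col11a2, against 13.6% of all windows.

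The effective length of Col9a1 was 3553 bases in the Prg4KO library and 3650 bases in the WT library, a difference of -2.65%. For genes listed with 1 transcript and at least 10000 counts in both libraries (155 genes), the median absolute difference was 0.00036%. Among 74 genes with several transcripts at that depth it was 0.0627%, and 3 others, Igf2, Lmna and Atf4, named after their values were seen, differed by at least as much as Col9a1. If the Col9a1 transcripts differ by 775 bases, as in GENCODE, the difference of -96.9 bases equals 12.5 percentage points of the transcript mix, towards the short form in the Prg4KO library. That is an estimate, because the lengths behind the deposited values need not be those of GENCODE: Col9a2 was deposited with 2746 bases and has 2924 there. Part of the FPKM ratio of Col9a1 comes from this length, since the ratio was 1.57 in FPKM and 1.53 in counts.

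**Figure D3:**
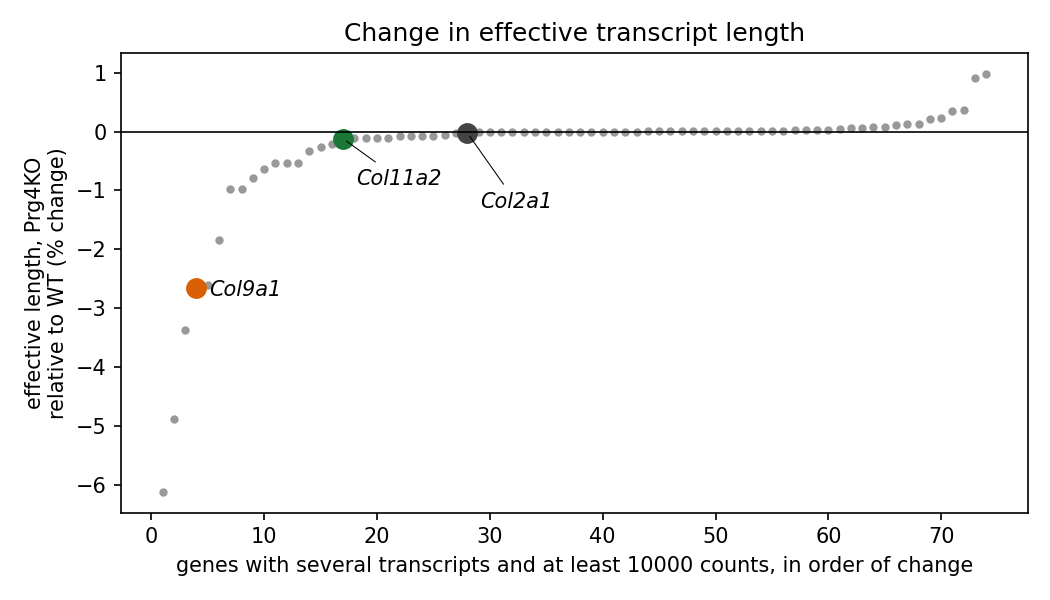
Difference in effective transcript length, Prg4KO relative to WT in percent, for 74 genes with several transcripts and at least 10000 counts in both libraries, ordered along the x axis. Col9a1 is the fourth lowest at -2.65%, while Col11a2 (-0.12%) and Col2a1 (-0.02%) lie near 0.

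The lower tail was the longer one in general: 6 of the 74 genes were shorter by at least 1% in the Prg4KO library and 0 were longer by as much. Across genes the log2 ratios of FPKM also went with transcript length (Spearman's rho -0.28) and GC content (rho -0.351), and genes share library and base composition in this. The part of such a trend in the Col9a1 length was not tested.

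Col2a1 has a similar choice of transcript. Its exon 2 encodes the cysteine-rich domain of the amino propeptide, is kept in form IIA of chondroprogenitors and is skipped in form IIB of mature chondrocytes. The exon has 204 bases, lies in the coding sequence on the minus strand of chr15:98000403-98000606 (GRCm38, GENCODE M21), and is shown as the stretch that separates the forms. Capitals mark its 10 cysteine codons.
Col2a1 exon 2: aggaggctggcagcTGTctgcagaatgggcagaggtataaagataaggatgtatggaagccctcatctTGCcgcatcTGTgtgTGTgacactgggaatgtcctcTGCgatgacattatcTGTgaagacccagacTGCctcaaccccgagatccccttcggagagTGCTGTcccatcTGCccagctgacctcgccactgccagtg

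The effective length of Col2a1 was 4909 bases in the Prg4KO library and 4910 in the WT library, a difference of -1.05 bases. On a difference of 242 bases between the GENCODE forms, that is 0.43 percentage points of the mix. By this measure the Col2a1 mix differed far less than that of Col9a1. For Col11a2, whose forms differ in the exons of the variable amino-terminal region and in their ends, the effective length was 6314 bases in the Prg4KO library and 6322 in the WT library, a difference of -0.12%.

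Set among all collagen genes, the type IX genes were the highest 3 by log2 ratio. Of 44 collagen genes in the table, 28 reached an FPKM of 5 in at least 1 library. Next in order were Col10a1, the collagen of hypertrophic cartilage, at 301 FPKM in the Prg4KO library and 241 in the WT library (log2 ratio 0.32), Col11a1, Col27a1 and Col11a2. Col2a1 was ninth. The type IX genes held the first 3 places under every setting. Of the 22 other collagen genes 19 had a log2 ratio below 0, with a median of -0.49, and 9 were past 1.5-fold on the lower side. After removal of the trend in length and GC content the median was -0.21, 16 were below 0 and 1, Col1a1, was past 1.5-fold, while under the 5 rescalings 11 to 13 were past it.

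**Figure D4:**
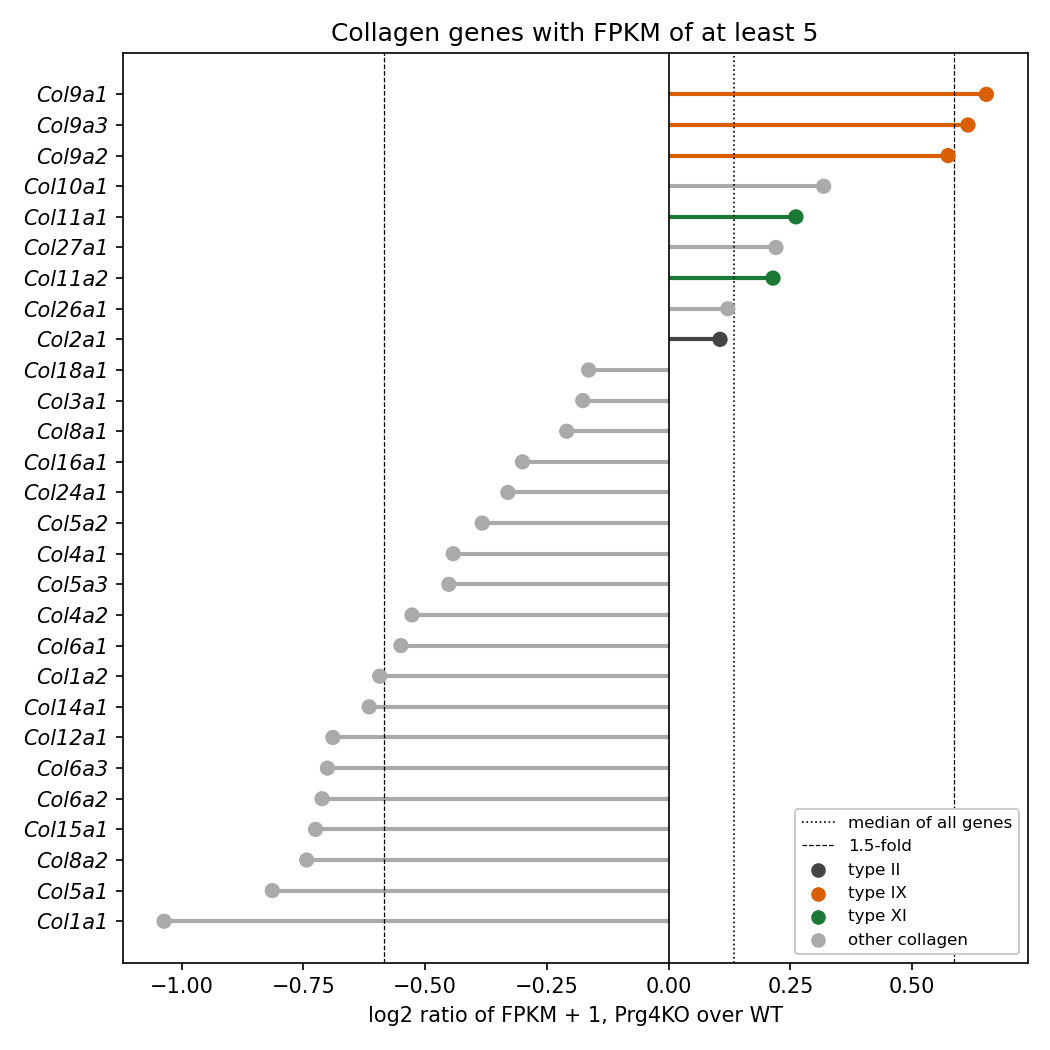
Log2 ratio of FPKM + 1, Prg4KO over WT (1 library each), for the 28 collagen genes that reached an FPKM of 5 in at least 1 library, with dashed lines at 1.5-fold and a dotted line at the all-gene median of 0.13. The type IX genes stand at the top at 0.57 to 0.65, Col2a1 and the type XI genes lie at 0.11 to 0.26, and Col1a1 is at the bottom at -1.04.

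The chains that share fibril types with the cartilage collagens mostly lay on the other side. Of these 8, 3 were past 1.5-fold on the lower side and 0 on the higher side, with a median log2 ratio of -0.42. Over the 10 settings, 1 to 4 were past it on the lower side and 0 on the higher. Col5a1, whose chain can combine with type XI chains in hybrid molecules, had an FPKM of 148 in the Prg4KO library and 260 in the WT library (log2 ratio -0.81). Its partners Col5a2 (143 in Prg4KO, 187 in WT) and Col5a3 (9.89 in Prg4KO, 13.9 in WT) had log2 ratios of -0.38 and -0.45. Col11a1 thus stood at 3.45 FPKM per FPKM of Col5a1 in the Prg4KO library and 1.63 in the WT library.

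Col1a1 and Col1a2 encode type I collagen of fibrous tissue and bone. Col1a1 had a log2 ratio of -1.04 and Col1a2 of -0.59, so Col2a1 stood at 2.81 FPKM per FPKM of Col1a1 in the Prg4KO library and 1.27 in the WT library. Col3a1, of loose connective tissue, had a log2 ratio of -0.18, which turned to 0.00 with the trend removed. Col27a1, a fibrillar collagen also made in cartilage, was at 83.1 FPKM in the Prg4KO library and 71.2 in the WT library, with a log2 ratio of 0.22. Col24a1 had an FPKM of 4.02 in the Prg4KO library and 5.31 in the WT library.

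Type IX belongs to the fibril-associated collagens with interrupted helices. Of 7 other genes of that class, 3 had an FPKM of at least 5, and 2 of these were past 1.5-fold on the lower side, against 0 with the length and GC trend removed. Col12a1, of dense connective tissue, had an FPKM of 86.3 in the Prg4KO library and 140 in the WT library (log2 ratio -0.69). Col14a1 had 64.6 FPKM in the Prg4KO library and 99.4 in the WT library (-0.61), and Col16a1 had 192 in the Prg4KO library and 237 in the WT library (-0.30, which turned to 0.02 with that trend removed). Col9a1 therefore stood at 12.9 FPKM per FPKM of Col12a1 in the Prg4KO library and 5.07 in the WT library.

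The proteins that bind cartilage fibrils were split. Of 12, 4 were past 1.5-fold on the higher side and 1 on the lower, with a median log2 ratio of 0.00. Over the 10 settings the counts were 2 to 4 on the higher side and 0 to 1 on the lower. Comp, which binds type II and type IX collagen, had an FPKM of 1416 in the Prg4KO library and 1183 in the WT library (log2 ratio 0.26), close to the type XI genes. Epyc, a small proteoglycan of growth cartilage, had 247 in the Prg4KO library and 101 in the WT library (1.28). Matn3, a matrilin that binds type IX collagen, had 377 in the Prg4KO library and 168 in the WT library (1.16). On the other side, Fmod, a proteoglycan that guides fibril growth, had 2285 in the Prg4KO library and 3628 in the WT library (-0.67), and Chad, an adhesion protein that binds type II collagen, had 523 in the Prg4KO library and 636 in the WT library (-0.28).

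Genes that regulate the cartilage collagens had ratios on both sides of 0. Of 9, 8 had an FPKM of at least 5, with 0 past 1.5-fold on the higher side and 1 on the lower, and a median log2 ratio of 0.07. Sox9, a transcription factor that drives cartilage collagen genes, had an FPKM of 168 in the Prg4KO library and 150 in the WT library (log2 ratio 0.16, which was -0.01 at the lowest of the rescalings). Its partner Sox5 had 6.13 in the Prg4KO library and 4.69 in the WT library (0.33). Snai2, a repressor found in mesenchymal cells, had 7.93 in the Prg4KO library and 5.95 in the WT library (0.36). Arid5b, a coactivator of Sox9, had 3.82 in the Prg4KO library and 7.03 in the WT library (-0.74), and Arid5a had 7.75 in the Prg4KO library and 9.27 in the WT library (-0.23, above 0 in 1 of 10 settings).

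The machinery that folds and exports procollagen had 0 of 18 genes past 1.5-fold in either direction as deposited and a median log2 ratio of -0.01. With the length and GC trend removed 1, P3h2, was past it on the higher side, at 0.64. P4ha1, a prolyl 4-hydroxylase subunit, had an FPKM of 91.2 in the Prg4KO library and 106 in the WT library (-0.21). P3h2, a prolyl 3-hydroxylase, had 24.5 in the Prg4KO library and 16.3 in the WT library (0.56), and P4ha3 had 16.5 in the Prg4KO library and 12.5 in the WT library (0.37). The lowest were Creb3l2, a transcription factor for the export machinery of chondrocytes, with 48.4 in the Prg4KO library and 64.5 in the WT library (-0.41), and the lysyl hydroxylase Plod1, with 80.0 in the Prg4KO library and 99.2 in the WT library (-0.31).

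Among 13 genes of procollagen processing and crosslinking, 9 had an FPKM of at least 5, with 1 past 1.5-fold on each side (Pcolce2 higher, Loxl1 lower) and a median log2 ratio of -0.27. Under the 5 rescalings 0 were past it on the higher side and 2, with Pcolce, on the lower. Adamts2, which removes the amino propeptide, had an FPKM of 10.5 in the Prg4KO library and 13.1 in the WT library (-0.30). Pcolce2, an enhancer of propeptide removal, had 124 in the Prg4KO library and 75.9 in the WT library (0.70, and 0.52 at the lowest), while the related Pcolce had 725 in the Prg4KO library and 1087 in the WT library (-0.584, just inside the limit). The crosslinking oxidase Loxl4 had 46.8 in the Prg4KO library and 36.4 in the WT library (0.35), and Loxl1 had 60.1 in the Prg4KO library and 94.0 in the WT library (-0.64).

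Markers of chondrocyte states and of other cells also differed between the libraries. The summed FPKM of the chondrocyte markers was 20572 in the Prg4KO library and 17983 in the WT library, most of it Col2a1 itself. Of these 7, 3 (Hapln1, Matn1 and Snorc, which the table gives under an older symbol) were past 1.5-fold on the higher side, and 0 to 3 over the 10 settings. Acan was lower in the Prg4KO library, at 436 against 527 in the WT library (log2 ratio -0.275, above 0 in 1 of 10 settings). The hypertrophic markers summed to 593 in the Prg4KO library and 408 in the WT library, with 2 of 5 past 1.5-fold on the higher side (1 to 2 over the settings). The fibroblast and tendon markers summed to 10639 in the Prg4KO library and 18608 in the WT library. Of 5 with an FPKM of at least 5, 2, Col1a1 and Col1a2, were past 1.5-fold on the lower side (1 to 3 over the settings). Both sums were mostly Col1a1 and Col1a2, which with Col3a1 are also among the fibril chains above. Col1a1 had 5593 in the Prg4KO library and 11470 in the WT library. Col1a2 had 3869 in the Prg4KO library and 5838 in the WT library. Among the markers that are not collagens, Tnmd had 314 in the Prg4KO library and 321 in the WT library (-0.03). Scx was at -0.47 and Mkx, with an FPKM below 5, at -0.18. Of the 7 superficial zone markers 3, Prg4, Tnc and Thbs4, were past 1.5-fold on the lower side. The sums of the 7 were 307 in the Prg4KO library and 1062 in the WT library, where Prg4 alone had 593. The count of 3 became 5 under the 5 rescalings, with Gdf5 and Dkk3. With the length and GC trend removed it was 1, Prg4 itself, the gene that these mice lack. Erg went the other way, at 12.6 in the Prg4KO library and 9.78 in the WT library (0.34, above 0 in 10 of 10 settings). Cilp was at -0.14. The part of such shifts in the collagen ratios was not tested.

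Of the remaining markers, listed for cells other than chondrocytes, the erythroid and osteoclast ones had the highest sums, both below that of the fibroblast and tendon markers. Whether the RNA of each came from such cells was not tested. The 5 erythroid markers summed to 2210 FPKM in the Prg4KO library and 1310 in the WT library, mostly haemoglobin, and 4 of 4 with an FPKM of at least 5 were past 1.5-fold on the higher side, against 2 to 4 over the 10 settings. Osteoblast markers summed to 84.4 in the Prg4KO library and 74.2 in the WT library, with 1 of 3 past 1.5-fold on the higher side. Osteoclast markers summed to 235 in the Prg4KO library and 166 in the WT library, mostly Ctsk at 143 in the Prg4KO library and 140 in the WT library. Of 3 with an FPKM of at least 5, 2 were past 1.5-fold on the higher side in all 10 settings. These were Mmp9, at 56.9 in the Prg4KO library and 14.1 in the WT library, and Acp5, at 32.3 in the Prg4KO library and 10.2 in the WT library. Atp6v0d2 (1.37 in Prg4KO, 0.50 in WT), Ocstamp (0.89 in Prg4KO, 0.57 in WT), Oscar (0.31 in Prg4KO, 0.20 in WT) and Calcr (0.03 in Prg4KO, 0.05 in WT) were low. Macrophage markers summed to 44.5 in the Prg4KO library and 35.2 in the WT library, endothelial ones to 67.0 in the Prg4KO library and 70.5 in the WT library, and muscle ones to 10.5 in the Prg4KO library and 10.6 in the WT library. The part of these in the collagen ratios was not tested.

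**Figure D5:**
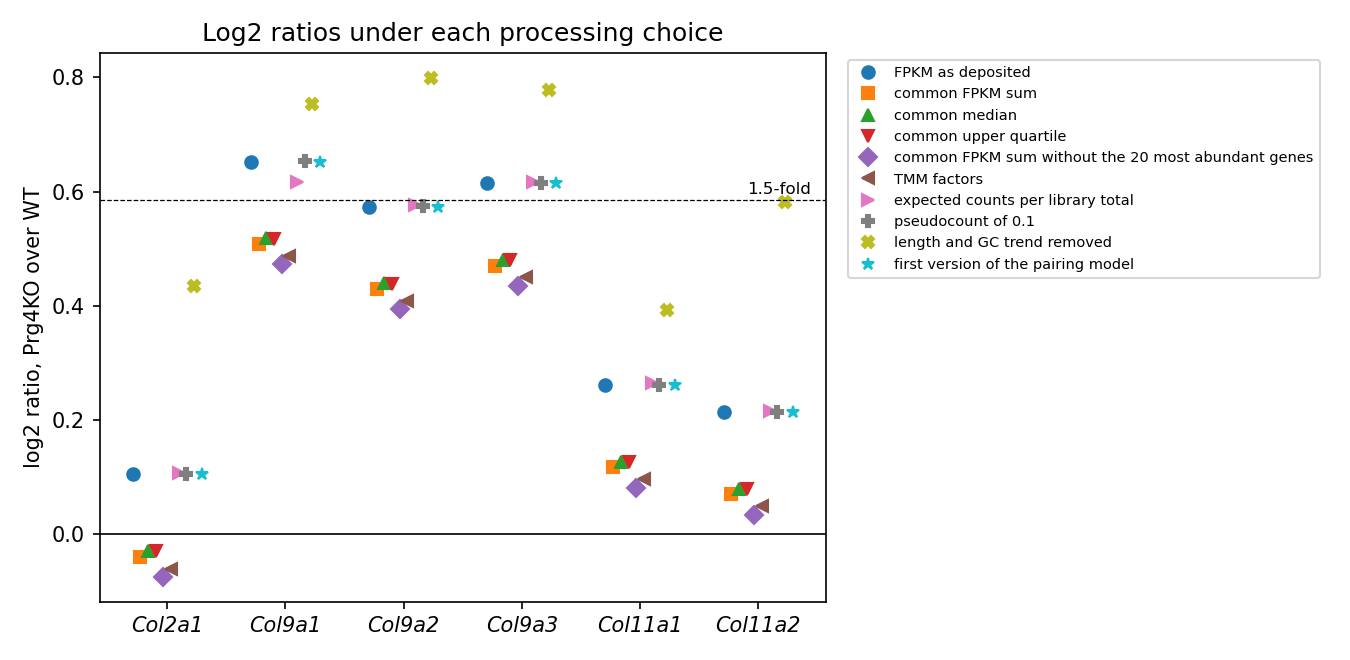
Log2 ratio, Prg4KO over WT (1 library each), of the 6 genes under the deposited FPKM and 9 other processing choices, with a dashed line at 1.5-fold. The type IX genes lie at 0.39 to 0.80 and above 0 under each choice, and Col2a1 lies between -0.07 and 0.43.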

How the data were processed

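The deposited table held expected counts and FPKM for 1 Prg4KO and 1 WT library, per the file headers. The expected counts deposited are estimates that need not be whole. FPKM, also deposited by the authors, divides each count by effective length and by library size. HISAT2, Bowtie2, RSEM and mm10 are named, without versions or roles, per the submitters' processing notes. The sources used here do not state strand or read length. Reads may be split between similar genes (counts of Col9a3 and Col2a1 were not all whole).

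The table named 15719 genes and held 15973 pairs of Prg4KO values. As deposited, log2 FPKM correlated across genes at r = 0.981 over the first 20 rows and 0.0904 over later ones. A pair hidden Markov model over row order and effective length (Python 3.11.15, numba 0.67.0) re-paired 14829 genes (94.3%) at a probability of at least 0.95, with r = 0.991 afterwards. It was also run on tables simulated from the WT rows. These share the model's rules of row order and effective length, so they cannot test how the real rows slipped. The model compared no levels between the libraries; low counts only raised the chance that a row had no partner.

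Log2 ratios used a pseudocount of 1 FPKM. A gene was past a limit at 1.5-fold or 2-fold with a larger FPKM of at least 5. Poisson and Clopper-Pearson 95% intervals cover counting error only. TMM factors came from edgeR 4.0.16, and GC content and transcript lengths, used also in place of RefSeq lengths, from GENCODE M21 (99.4% of genes matched). List genes under an older symbol (1, Snorc) were matched by gene ID through RefSeq. Promoters are from RefSeq, for Col9a1, Col9a2, Col11a1 and Col11a2 but not Col2a1 and Col9a3. All 6 members are described, with, from each gene list, its first gene and the 2 highest and 2 lowest ratios with an FPKM of at least 5, and all chains that share fibril types. Members and lists were chosen with earlier results of these data known. No test of genotype was possible with 1 library each.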

Additional observations from a re-analysis of the deposited data

How the results depend on the processing

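The type IX and type XI genes had a positive log2 ratio under all 9 alternatives, but the size of every ratio depended on the scaling. The settings below are, in order, a common FPKM sum, a common median, a common upper quartile, a common sum without the 20 most abundant genes, and TMM factors. The median of the type IX chains was 0.47, 0.48, 0.48, 0.43 and 0.45, against 0.61 as deposited. The mean of the type XI chains was 0.094, 0.10, 0.10, 0.058 and 0.073, against 0.24. The median of all 6 genes was 0.27, 0.28, 0.28, 0.24 and 0.25, against 0.42. Col2a1 was at -0.039, -0.028, -0.029, -0.074 and -0.060, against 0.11, and 0 members were past 1.5-fold under each, against 2. These shifts follow from the construction, since each rescaling also moved the all-gene median, by -0.13 to -0.17. With the trend in length and GC content removed, the values were 0.78 for type IX, 0.49 for type XI, 0.67 for all 6 and 0.43 for Col2a1 (Col11a1, at 0.39, then lay below it), and 3 members were past 1.5-fold. Counts per library total, a pseudocount of 0.1 and the first version of the pairing model left these within counting error, and the filters on low values and pair probability left the 2 members past 1.5-fold. Over all genes, 465 were past 1.5-fold on the higher side and 112 on the lower as deposited, against 157 to 209 and 213 to 267 under the rescalings, and 263 and 60 with the trend removed. Past 2-fold, 34 were higher and 8 lower as deposited, against 14 to 17 and 15 to 20 under the rescalings and 19 and 5 with the trend removed. A pseudocount of 0.1 gave 54 past 2-fold on the higher side, and the first pairing version gave 13 on the lower. No paired analysis was possible because each group has 1 library, and for the same reason none could be left out. Depth did not limit these genes, which had at least 56827 counts in each library, but the spread between cultures is unknown.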

Other observations

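The receptors through which cells bind collagen gave no common direction. Of 7, 5 had an FPKM of at least 5, with 0 past 1.5-fold on the higher side and 1 on the lower, Itga11, which was past it in 9 of 10 settings. Itga10, an integrin subunit of chondrocytes that binds type II collagen, had an FPKM of 28.3 in the Prg4KO library and 26.0 in the WT library (log2 ratio 0.12, above 0 in 5 of 10 settings), and its partner Itgb1 had 84.6 in the Prg4KO library and 74.7 in the WT library (0.18, above 0 in 9 of 10). Itga11, an integrin subunit of fibroblasts that binds type I collagen, had 9.25 in the Prg4KO library and 15.6 in the WT library (-0.70). Ddr1, a collagen-binding kinase, had 9.87 in the Prg4KO library and 10.3 in the WT library (-0.06, above 0 in 1 of 10).

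Of the genes for proteases that cleave type II collagen, 4 of 5 had values in the table and 0 were past 1.5-fold as deposited. Mmp13, a collagenase of hypertrophic chondrocytes, had an FPKM of 76.6 in the Prg4KO library and 56.5 in the WT library (log2 ratio 0.43). Mmp14, a membrane-bound collagenase, had 158 in the Prg4KO library and 211 in the WT library (-0.42, and past the limit on the lower side in 1 of 10 settings). Mmp3 had 8.93 in the Prg4KO library and 6.48 in the WT library (0.41), and Ctsk, cathepsin K, had 143 in the Prg4KO library and 140 in the WT library (0.03, above 0 in 4 of 10 settings).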
